A study of Mus musculus with 6 samples.

Results

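The Cep genes of the mouse, named for the centrosomal proteins they encode, were examined for peaks in cells with an inducible construct for the transcription factor E2F1. Members were all protein-coding genes of the GRCm38 RefSeq table whose symbol starts with Cep and a number, which gave 38 of 21887 protein-coding genes on the assembled chromosomes. Chromatin immunoprecipitation with sequencing (ChIP-seq) had been done in NIH/3T3, an established line of mouse embryonic fibroblasts, carrying a stably integrated doxycycline-inducible construct for E2F1 or an empty vector (EV). There were 2 libraries per construct, and the cells of all 4 had been kept in low serum for 48 hours, which brings them to a resting state, and then given doxycycline for 12 hours. Both groups thus share the starvation and the drug, and the EV cells differ in lacking the E2F1 insert. An E2F1 peak here is a peak listed for a library of the E2F1 construct. The antibody is not given in the sources used here, so whether the EV libraries could list the cells' own E2F1 is not known. The labels do not say whether the lines were clones or pools, or whether replicates were separate cultures, so any spread between replicates may be technical. Another 2 samples, input DNA of EV cells, were not analysed here.

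The centrosome is built around a pair of centrioles, which are copied once per cell cycle, beginning around the entry into S phase. Plk4, a kinase recruited to the parental centriole by scaffold proteins of the Cep family, starts the copy. Other Cep proteins tie the centrioles together, form the appendages that dock a mature centriole to the membrane, or build the base of the primary cilium, which resting fibroblasts carry and which is taken down as cells return to the cycle. E2F1 is a transcription factor best known for switching on genes of S phase entry. The members share a name and, mostly, a place in the cell, not a sequence family, and Cep55 acts at the midbody in cytokinesis.

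A peak in both E2F1 libraries was found in, or within 1000 bp of, 34 of the 38 Cep genes (89.5%). The same rule called 34.4% of all protein-coding genes. Cep genes are long, with a median of 42724 bp against 17169 bp for protein-coding genes in general, and of the genes of at least 10 kb, which include 37 of the 38 members, 42.4% were called. Cep19 had a peak in E2F1 replicate 2 alone, and Cep20, Cep126 and Cep295nl had none in either library. Neither EV library listed a peak at any of the 38. The EV lists called 0.0366% of protein-coding genes in replicate 1 and 0.407% in replicate 2, so absence there holds for almost all genes.

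Over all protein-coding genes, 8085 and 8364 had a peak in E2F1 replicates 1 and 2, against 8 and 89 in EV replicates 1 and 2. On the log2 scale the E2F1 mean exceeded the EV mean by 8.27, and the groups did not overlap. By an exact permutation over the libraries, two-sided, p was 0.333, which a design of 2 against 2 cannot go below. The EV lists differed from each other, and the value was 6.53 when EV replicate 1 was left out and 10.01 when EV replicate 2 was. The nearest EV peak to any member lay 29798 bp from Cep170b, in EV replicate 2.

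Every list stops at a −log10 p just above 10, so a weaker signal would not be listed. At the lowest background found in each list, a site needed a fold enrichment of 5.63 in EV replicate 1 and 6.43 in EV replicate 2 to be listed. Fold enrichment here is the authors' value per peak, the reads piled up at the summit over the local background. Of the 34 members, 31 in E2F1 replicate 1 and 34 in replicate 2 reached the first of these folds, and 30 and 32 reached the second. The EV backgrounds at these loci are not in the lists.

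**Figure D1:**
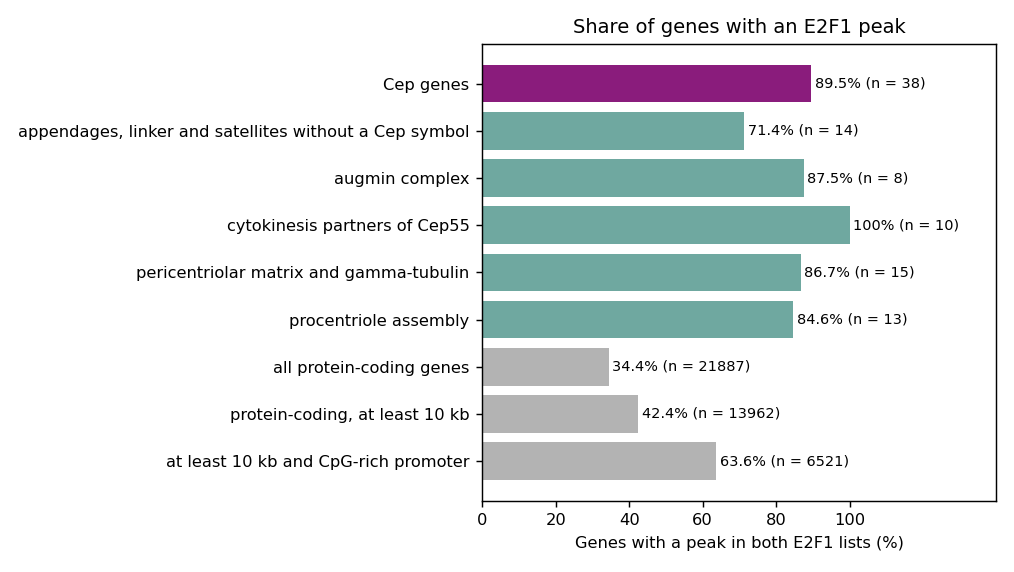
Share of genes with a peak in both E2F1 lists (horizontal axis, percent) for the 38 Cep genes, 5 other lists of centrosome and cytokinesis genes, and protein-coding genes in general; n is the number of genes. The Cep genes reach 89.5%, protein-coding genes 34.4%, and long genes with a CpG-rich promoter 63.6%.

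At members with an annotated start, the peaks lay near it. Promoter entries, 250 bases before to 50 bases after an annotated start, were taken from RefSeq on GRCm38.p6 and matched 32 members, 29 of them with a peak in both lists. At all 29 the summit of the strongest peak lay within 1000 bp of an annotated start in both libraries, compared with 90.4% and 90.3% of the 6156 such protein-coding genes in replicates 1 and 2. The median summit was 135 bp downstream of the start in replicate 1 and 57 bp downstream in replicate 2, against medians of 126 and 52 bp over all genes with a summit within that distance. Summits were downstream of the start at 22 and 18 of the 29 (75.9% and 62.1%), near the 70.4% and 61.9% of all genes with a summit within that distance. Counting only peaks within 1000 bp of an annotated start, 29 of 32 members and 33.1% of protein-coding genes with an entry were called in both lists. The start nearest to the summit was not always the member's own. At Cep44, Cep57, Cep63, Cep83, Cep89 and Cep95 it was another gene's in both libraries, and at Cep57l1 in replicate 1 alone. Called members without an entry could not be placed in this way.

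At Cep41 and Cep70, peaks in the middle of the gene model were also near an annotated start. At Cep41, whose product takes part in tubulin modification in cilia, the summits lay 16903 and 16947 bp inside the nearer gene boundary, but 135 and 179 bp downstream of an annotated start. At Cep70 they lay 59927 and 60011 bp inside the boundary, and 170 and 254 bp downstream of a start. Cep120, which has no promoter entry, had its summits 1228 and 1161 bp inside the gene, and whether a start lies there could not be checked. Cep85 was the member with more than 1 peak per library: a second, weaker peak, with fold enrichments of 6.22 and 5.94, lay beyond its far end and overlapped the neighbouring gene Sh3bgrl3.

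**Figure D2:**
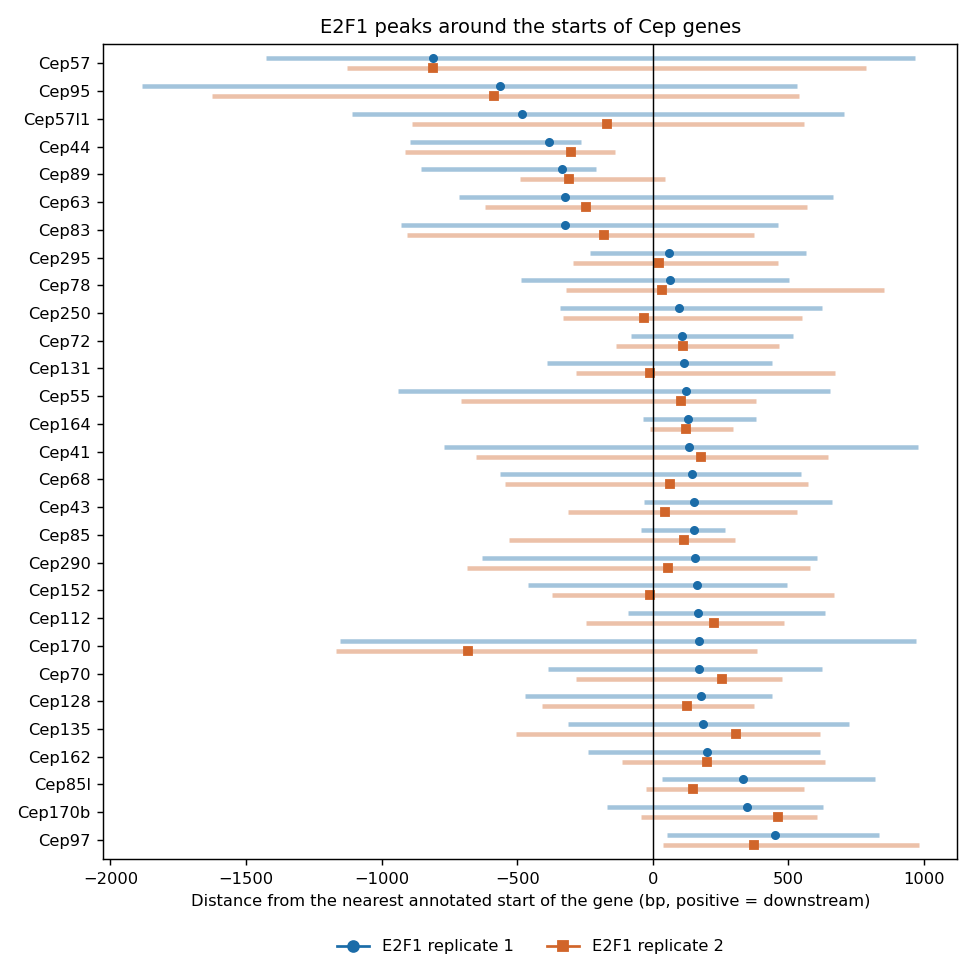
Extent (bars) and summit (points) of the strongest E2F1 peak in each library, as distance in bp from the nearest annotated start of the gene (horizontal axis, positive downstream), for the 29 Cep genes with a promoter entry and a peak in both lists. All summits lie within 1000 bp of a start, with Cep57 farthest upstream, at −812 bp in replicate 1 and −810 bp in replicate 2.

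Most member promoters were rich in CpG. An observed-to-expected CpG ratio of at least 0.6 with at least 50% G and C was met by 26 of the 32 (81.2%), compared with 48.3% of the 17492 protein-coding genes with an entry. Protein-coding genes with such a promoter were called in 61.8% of cases, and those of at least 10 kb in 63.6%. Among members, 23 of the 26 CpG-rich genes and all 6 of the others (Cep41, Cep85l, Cep89, Cep97, Cep128 and Cep164) were called. Of protein-coding genes of any length whose entry is not CpG-rich, 10.3% were. Some of the 6 missed a threshold narrowly: Cep41 and Cep89 had ratios of 0.582 and 0.59, and Cep164 had 49.3% G and C. Cep85l, Cep97 and Cep128 had ratios of 0.507, 0.45 and 0.493. The 3 CpG-rich members without a call were Cep19, Cep20 and Cep126.

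The known E2F site was then looked for as letters, on both strands of the entries. The core TTCCCGC was present at 9 of 32 members (28.1%), 6.84% of all promoters and 12.4% of promoters of genes with a peak in both lists. The longer forms TTTCCCGC, TTTGGCGC, TTTGCCGC and TTTCGCGC, of which the first contains the core, were present at 2 members (6.25%) and at 3.29% of all promoters, 6.19% of those with a peak and 5.49% of CpG-rich ones. At least 1 of the searches succeeded at 10 members (31.2%), compared with 8.34% of all promoters, 15% of those with a peak and 14.1% of CpG-rich ones. All 10 had a peak in both lists. At the other 19 members with an entry and such a peak, these letters were not in the window, which covers only 50 bases of the downstream side where many summits lay.

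The 10 matches are shown with their surroundings because they place the E2F letters against the summits. They are ordered by the mean distance of the match from the summits of both libraries, nearest first, read 5′ to 3′ on the strand of the gene, with the searched letters or their reverse complement in capitals. The windows are chr9:15357763-15357792 (Cep295), chr9:102626345-102626374 (Cep63), chr8:56550719-56550748 (Cep44), chr2:125625269-125625298 (Cep152), chr9:99243271-99243300 (Cep70), chr11:108425123-108425152 (Cep112), chr6:30693922-30693951 (Cep41), chr12:91384603-91384632 (Cep128), chr1:176814065-176814094 (Cep170), chr9:13827186-13827215 (Cep57).
Cep295: tcctaagctggTTCCCGCcgtccgatcccg
Cep63: ccgggccgcggGCGCGAAAaacccttaccc
Cep44: tgcagacccggTTCCCGCcacgttctcggg
Cep152: ctccgggaagcTTCCCGCcgccactggcgc
Cep70: tgggagtggagGCGGGAAgaagccccgccc
Cep112: aagggcggaaaTTCCCGCcccctcggactt
Cep41: ctcccccttccTTCCCGCgctcaggcagga
Cep128: acaaaattagtGCGGGAAAagaaggcaggg
Cep170: gttcgctgccgTTCCCGCtatgtgtggggc
Cep57: agacgttgccgTTCCCGCaggctccgcgat
At Cep295 the match lay 50 bp from the summit of replicate 1 and 12 bp from that of replicate 2. At Cep63 the distances were 89 and 9 bp. At the remaining 8 the match was at least 132 bp from either summit, up to 718 bp at Cep57. Each match lay inside the peak of both libraries, except at Cep44 and Cep112, where it lay inside the peak of replicate 2 alone. A match is a description of the letters and not a measured site.

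Other letters of cell cycle promoters were searched in the same way. The cell cycle genes homology region, searched as TTTGAA or TTCGAA, was present at 10 of 32 members (31.2%) and at 20.2% of all promoters, and at 15.9% of those with a peak. CCAAT, the box bound by NF-Y, was present at 16 of 32 (50%) and 42.3% of all promoters. Both matched at Cep89, Cep152, Cep164, Cep295 and Cep57l1.

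The bases upstream of the outermost annotated start are given for 4 genes. The summits at Cep135, Cep72 and Cep85l lay outside these stretches, so the bases under the summits are not shown. Cep135 and Cep72 were among the strongest members, Cep85l was the weakest with a promoter entry, and Cep126 had no peak. The stretches are chr5:76588449-76588652 (Cep135, plus strand), chr13:74062320-74062535 (Cep72, minus strand), chr10:53379884-53380133 (Cep85l, minus strand) and chr9:8134480-8134696 (Cep126, minus strand), on GRCm38.p6. Capitals mark CCAAT or its reverse complement. At Cep135, Cep72 and Cep126 the promoter entry is built on a start farther downstream, so the stretch is shorter than the entry. No E2F core and no homology region letters were found in the stretches, while the entry of Cep72 holds homology region letters outside the stretch printed.
Cep135: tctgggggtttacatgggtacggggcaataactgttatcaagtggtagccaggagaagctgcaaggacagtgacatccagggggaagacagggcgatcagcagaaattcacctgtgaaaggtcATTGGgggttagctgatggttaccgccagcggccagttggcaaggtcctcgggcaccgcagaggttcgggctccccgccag
Cep72: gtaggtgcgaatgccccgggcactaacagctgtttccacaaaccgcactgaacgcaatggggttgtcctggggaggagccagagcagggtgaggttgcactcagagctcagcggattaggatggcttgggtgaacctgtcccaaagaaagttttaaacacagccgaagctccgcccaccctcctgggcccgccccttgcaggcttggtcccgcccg
Cep85l: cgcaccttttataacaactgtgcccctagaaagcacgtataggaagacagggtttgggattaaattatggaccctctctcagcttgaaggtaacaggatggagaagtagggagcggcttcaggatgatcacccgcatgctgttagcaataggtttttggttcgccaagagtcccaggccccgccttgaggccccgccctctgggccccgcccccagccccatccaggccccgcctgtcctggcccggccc
Cep126: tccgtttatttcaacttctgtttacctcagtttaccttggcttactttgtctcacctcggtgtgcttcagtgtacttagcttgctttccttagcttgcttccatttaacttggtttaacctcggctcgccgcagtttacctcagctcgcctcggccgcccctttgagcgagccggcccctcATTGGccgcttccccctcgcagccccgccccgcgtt
They held 8, 10, 10 and 15 CpG pairs, in that order. None of the 4 entries holds the E2F letters searched. Of the 5 members with the highest mean percentile, Cep63, Cep41 and Cep295 had them and Cep135 and Cep72 did not.

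Of the genes of centriole duplication and assembly, 14 of 14 were called, where 34.4% of protein-coding genes and 63.6% of long ones with a CpG-rich promoter were. They included Cep63, Cep135, Cep72 and Cep295, which with Cep41 had the highest mean percentiles of the members. Cep72 was placed in this group though its product is a satellite protein, and with it moved to the satellite group the count is 13 of 13. Ranks are given as the percentile of a peak's fold enrichment within its own list. The group's median fold enrichment was 15.4 in replicate 1 and 15.7 in replicate 2, at median percentiles of 78.7 and 66.4. The medians over all 7537 protein-coding genes with a peak in both lists were folds of 10.2 and 13.1, at percentiles of 57.1 and 57.6.

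Cep63, which with Cep152 forms the ring that recruits Plk4, had the highest mean percentile of all members. Its peak on chromosome 9, 102625459 to 102626838, had a fold enrichment of 32.9 in replicate 1 (rank 193, 159 reads at the summit). In replicate 2 it spanned 102625555 to 102626743, with a fold of 52.3 (rank 169, 189 reads). The peak also reached Anapc13, a subunit gene of the anaphase-promoting complex, whose start was the nearest to the summits at 153 and 73 bp, so the peak cannot be assigned to one of the pair.

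Cep135, a protein of the centriole wall and cartwheel, came next, with folds of 32.7 (rank 201) and 43.0 (rank 325) on chromosome 5. Cep72, a protein of the satellites around the centrosome, had folds of 33.7 (rank 175) and 34.2 (rank 595) on chromosome 13. Cep295, needed to turn a new centriole into a centrosome, had folds of 22.5 (rank 647) and 43.3 (rank 322) on chromosome 9. No other protein-coding gene was in reach of these 3 peaks.

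The remaining members of the group spread down to weak peaks. Cep76, known to limit repeated duplication, had folds of 17.1 and 25.0, and its peak was shared with the neighbour Psmg2. Cep57, a partner of Cep63, had folds of 20.4 and 14.1, with summits nearer to the start of Fam76b (203 and 201 bp) than to its own. The Plk4 scaffold Cep152 was in the middle of the lists, with folds of 8.88 and 11.6 (percentiles 47.6 and 51.4). Cep97, the partner of the centriole cap protein Ccp110, was lowest in the group, with folds of 6.33 and 8.18 from 21 and 23 reads at the summit. Between these lay Cep120, which lengthens centrioles, at 11.9 and 15, Cep85 at 8.32 and 16.4, and Cep350 at 6.80 and 13.1.

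Both genes of the linker that ties the centrioles together had a peak of moderate rank, where 34.4% of protein-coding genes were called. Cep250 had folds of 10.6 and 18.3 and Cep68 had folds of 15.9 and 17.8. Their percentiles lay between 59.6 and 80.4.

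All 5 appendage genes were called, beside 34.4% of protein-coding genes and 63.6% of long ones with a CpG-rich promoter, and 1 of them stood high. Cep83, which starts the assembly of the distal appendages, had folds of 17.9 (rank 1192) and 36.9 (rank 500) on chromosome 10. Its summits lay 148 and 4 bp from the start of the non-coding gene Cep83os, closer than to the start of Cep83 itself. The distal appendage protein genes Cep164 and Cep89 had lower folds, 10.5 and 8.43 at Cep164 and 4.62 and 8.34 at Cep89. The peak at Cep89 in replicate 1 lay 145 bp outside the gene and ranked 7523 of 7836, and its summits were 39 and 13 bp from the start of Faap24. The subdistal genes Cep128 (10.3 and 8.30) and Cep170 (6.65 and 11.9) were in the middle or below it. In replicate 2, 3 of the 5 appendage genes were below the 50th percentile.

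Of 8 genes for the cilium base, the transition zone and satellites, 6 were called in both libraries. The shares to set beside this are 34.4% of protein-coding genes and 63.6% of long ones with a CpG-rich promoter. Cep41 was the strongest, with folds of 32.4 (rank 213, 194 reads) and 42.2 (rank 345, 169 reads) on chromosome 6. Cep162, which marks the end of the centriole where the transition zone forms, had folds of 24.6 (rank 507) and 16.9 (rank 2446). Cep78 had folds of 14.5 and 19.0, and Cep290, a transition zone protein, 14.5 and 12.7, with Tmtc3 also in reach.

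The members of this group without a call in both libraries were Cep19 and Cep126. Cep19, which helps load the ciliary transport machinery, had a fold of 8.63 in replicate 2, from 28 reads and at percentile 34.7, with its summit 113 bp downstream of the start. In replicate 1 its nearest peak lay 20412 bp away. Cep126 had no peak within 71476 bp in either library.

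Cep55, which brings the membrane-cutting machinery to the midbody, had a weak peak in both libraries. The folds were 8.58 (rank 4317, 44 reads) and 5.94 (rank 7040, 44 reads), with summits 124 and 104 bp downstream of a start. The fold in replicate 2 was the lowest of any member in that list. Its read number was the same in both libraries, while the local background was 4.24 reads in replicate 1 and 6.58 in replicate 2.

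Among 8 less well described members, 6 were called, beside 34.4% of protein-coding genes and 63.6% of long ones with a CpG-rich promoter. Cep112 was the strongest of them, with folds of 20.4 (rank 861) and 23.1 (rank 1415) on chromosome 11. Cep95 had folds of 13.4 and 15.9 with summits nearest to the start of its neighbour Ddx5, an RNA helicase gene, at 195 and 174 bp. Cep70 and Cep43, the latter encoding the protein also known as FOP, had folds between 10.3 and 14.7. Cep85l had folds of 4.99 and 6.47. Cep20 and Cep295nl had no peak within 42940 and 11865 bp.

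**Figure D3:**
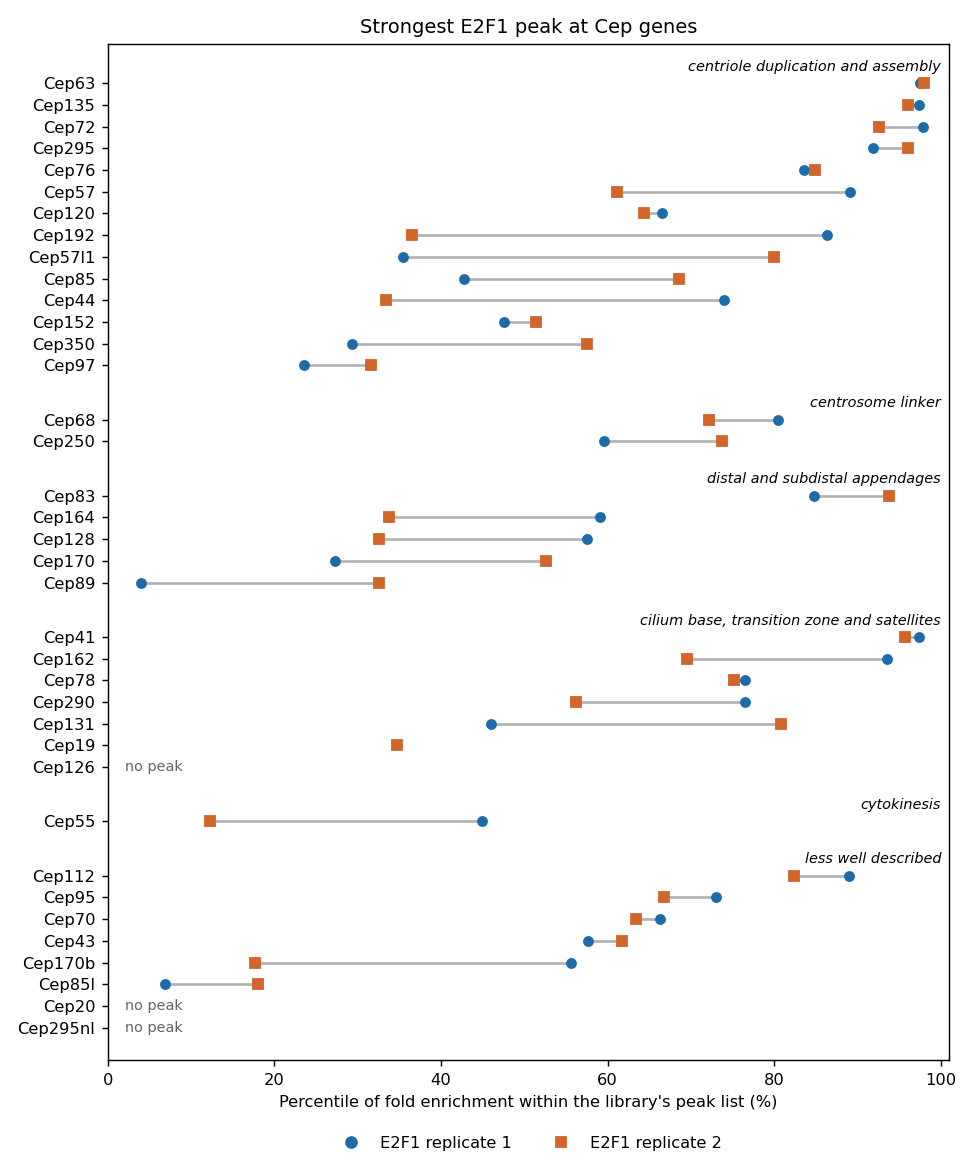
Percentile of fold enrichment of the strongest peak within its library's list (horizontal axis, percent; points for E2F1 replicate 1, squares for replicate 2, joined by a line) for 37 of the 38 Cep genes, by role. Cep63, Cep135, Cep41, Cep72 and Cep295 are above 90 in both libraries, and Cep85l is below 20 in both.

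Over the 34 called members, fold enrichment ran from 4.62 to 33.7 (median 11.9) in replicate 1 and from 5.94 to 52.3 (median 14.9) in replicate 2. Their median percentiles were 66.4 and 63.8, against 57.1 and 57.6 for all called genes. Ranked by the authors' peak score, the median of the mean percentile was 57.2 for members and 56.5 for all called genes, in place of 64.1 and 56.1 by fold. By score the members and all called genes had nearly the same median, and by fold the members' was higher. In each library 6 of the 34 (Cep63, Cep135, Cep41, Cep72 and Cep295 in both) were in the top 10% of their list, where 12.1% of all called genes were.

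The strongest peaks of the libraries overlapped at all 34, with a median distance between summits of 83 bp and a largest one of 852 bp, at Cep170. Spearman's rho of fold between the libraries was 0.70 over the 34 members (Pearson's r of log2 fold 0.74) and 0.71 over all called genes. These are correlations across genes within the same pair of libraries, and genes are not independent replicates.

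At 6 members the percentile differed by more than 30 points between libraries. Cep192, a scaffold for pericentriolar matrix and mitotic kinases, had folds of 18.6 and 8.94 (percentiles 86.3 and 36.5), with 52 and 46 reads over backgrounds of 1.85 and 4.26. Cep131, a satellite protein, went the other way, with folds of 8.72 and 22.0, with 75 and 102 reads over backgrounds of 7.71 and 3.68. Cep57l1 had folds of 7.43 and 21.3 and Cep44 had 13.7 and 8.40. Cep170b had 9.96 and 6.47, and Cep55 was the sixth. Over the 34 members, the reads at the summit had a rho of 0.88 between libraries and the local background one of 0.35. The part of the background in the differences of fold was not tested beyond these values.

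**Figure D4:**
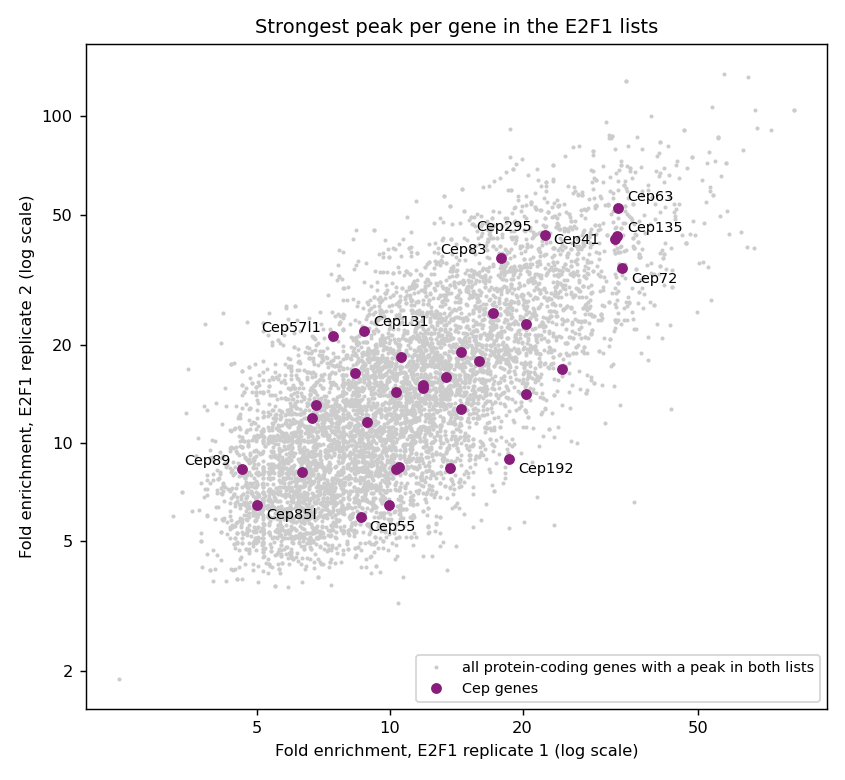
Fold enrichment of the strongest peak per gene in E2F1 replicate 1 (horizontal axis, log scale) and replicate 2 (vertical axis, log scale), for 33 of the 34 called Cep genes (purple) among the 7537 protein-coding genes with a peak in both lists (grey). The Cep genes shown run from 4.62 (Cep89) to 33.7 (Cep72) in replicate 1 and from 5.94 (Cep55) to 52.3 (Cep63) in replicate 2. The grey points reach 82.5 in replicate 1 and 134 in replicate 2.

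Neighbours shared the peak at about the usual rate. The strongest peak was also in or within 1000 bp of another protein-coding gene at 11 of the 34 members (32.4%), and at 31.2% of all called genes. Pairs included Cep44 with Fbxo8, Cep57 with Fam76b, Cep57l1 with Sesn1, Cep63 with Anapc13, Cep76 with Psmg2, Cep89 with Faap24, Cep95 with Ddx5, Cep170 with Sdccag8, Cep170b with Gm46382 and Cep290 with Tmtc3. When each peak was counted for the gene nearest to its summit, 30 members and 30.3% of all genes were called.

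Of the centrosome genes without a Cep symbol, 41 of 50 (82.0%) were called. The same rule called 34.4% of protein-coding genes and 63.6% of long ones with a CpG-rich promoter. No EV peak was listed at any of the 50, and EV replicates 1 and 2 called only 0.0366% and 0.407% of protein-coding genes. Of the genes that build the new centriole 11 of 13 were called, led by Spice1 (folds 35.9 and 43.7) and Poc1b (37.0 in both). Plk4, the kinase that Cep63 and Cep152 recruit, had folds of 14.7 and 15.4. Of the pericentriolar matrix and gamma-tubulin genes, which nucleate microtubules, 13 of 15 were called, led by Tubgcp3 (25.9 and 45.1) and Nin (23.5 and 35.9). The augmin complex, which branches spindle microtubules, had 7 of 8, led by Haus8 (21.8 and 32.6) and Haus4 (18.1 and 33.6). Appendage, linker and satellite genes had 10 of 14, led by Ssx2ip (26.4 and 40.2) and Cntrl (19.1 and 34.9).

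The genes that work with Cep55 in cytokinesis were called at 10 of 10, beside 34.4% of protein-coding genes and 63.6% of long ones with a CpG-rich promoter. Racgap1 (folds 20.6 and 33.3) and Kif23 (16.6 and 40.2), the subunits of centralspindlin, ranked highest. Their percentiles were 89.5 and 92.0 for Racgap1 and 82.2 and 95.2 for Kif23. The medians over the 10 were 71.4 and 77.5, and Cep55 itself had 44.9 and 12.3. Some of the 10 were lower than Cep55: Ect2 (32.1 and 5.67) in both libraries, Kif20b (37.6) in replicate 1 alone and Cit (10.5) in replicate 2 alone. No test of a list was made.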

How the data were processed

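ChIP-seq peak lists of 4 libraries, 2 per construct, were used, grouped by sample title. Per the submitters' processing notes, FastQC, Trimmomatic, Bowtie2, MACS2 and ChIPseeker were used on build mm10, which is GRCm38. The role and version of each tool, the antibody and the control of each list are not given in the sources used here, and the protocols in the labels describe RNA libraries. The deposited lists give per peak a score (10 times the −log10 q-value, rounded down for nearly all peaks), a fold enrichment, which is a ratio of pileup to local background, and −log10 p-values and q-values. Lists were per sample and held 7836 and 8027 peaks for E2F1 and 70 and 358 for EV.

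Peaks were assigned to every protein-coding gene in or within 1000 bp of which they lay (RefSeq, GRCm38.p6, 21 chromosomes), and the strongest peak by fold was taken per gene. Pileup and background were solved from fold, with a pseudocount of 1, and −log10 p as a Poisson tail. Whole reads within 5% of the step between neighbouring pileups were found for at least 95.7% of peaks per list, and for all peaks at members. The lowest background, which is not a direct measure of depth, was 1.85 and 1.86 reads for the E2F1 libraries. For EV it was 2.20 in replicate 1 and 1.18 in replicate 2. Library totals were not used. Gene assignment and the pileup solution were tested on simulated data. Python 3.11.15, pandas 2.3.3 and scipy 1.17.1 were used.

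The Cep genes and the other lists were chosen with earlier results of these data known, so counts are read beside the share of all genes and carry no p-value. Named by rule were the 12 members of highest mean percentile, those called in 1 list or none, and the 2 highest genes of each other list. Folds are given for all of these with a peak, and ranks, reads and peak positions for some of them only. Other members and Plk4 were named for their role after their values were seen. Ect2, Kif20b and Cit were named because a percentile of theirs lay below that of Cep55. The promoter letters searched, the CpG thresholds and the stretches other than at Cep85l were also chosen after the data were seen. The values of 1 member are not reported here, and it is counted in all totals. The permutation test was run over libraries. Alternatives were other windows, boundaries, starts, summits, overlap rules, the nearest gene, a stricter score, fewer symbols and leaving out each library.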

Additional observations from a re-analysis of the deposited data

How the results depend on the processing

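Of 30 alternatives over 6 results, 26 kept their size, or their direction and side of the threshold. The 26 include the ranking by peak score, though it left little difference between members and all called genes. The median of the mean percentile was then 57.2 against 56.5, in place of 64.1 against 56.1 by fold. The count of called Cep genes was 33 without a window, 32 within 1000 bp of a gene boundary, 29 of 32 within 1000 bp of an annotated start and 34 to 35 in the lists of single replicates. It fell to 19 of 38 with peaks at or above the median score of their list, where 17.1% of all genes were called, since weaker peaks are left out by construction. The share of protein-coding genes called was 42.4% for genes of at least 10 kb, 61.8% for those with a CpG-rich promoter and 63.6% for those with both, these last 2 settings, and the move of Cep72 to the satellite group (13 of 13 in place of 14 of 14), chosen after the data were seen. With the replicate block, the log2 ratio of called genes was again 8.27, and flipping the signs of the pairs gave an exact p of 0.5, as low as 2 pairs allow, and with 1 value per library whether the numbers pair the samples could not be checked. Without 1 library the ratio ran from 6.53 to 10.01, and at a score at or above the median of all E2F1 peaks it was 11.6. Sites under a −log10 p of 10 are not listed in any library. EV replicate 2 had the smallest lowest background, 1.18 reads, but sequencing depth itself was not measured.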

Other observations

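Non-coding genes whose symbols start with Cep and a number were outside the comparisons. Cep83os, a long non-coding RNA gene beside Cep83 on chromosome 10, was in reach of the same peak as Cep83, with folds of 17.9 and 36.9 in E2F1 replicates 1 and 2. Cep112os1, an antisense RNA gene, and Cep112it, a long non-coding RNA gene, both on chromosome 11 within Cep112, had 0 peaks in all 4 libraries. The EV libraries had 0 peaks at Cep83os.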
